A study of Drosophila melanogaster with 18 samples.

Results

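The regions described here lie on the 5 mapped heterochromatin scaffolds 2LHet, 3LHet, 3RHet, XHet and YHet of the dm3 build of the Drosophila melanogaster genome. They were taken by chromosome name alone, and number 557 of the 17192 regions in 3 tables that the authors deposited for a DRIP-seq experiment. In DRIP-seq, sheared DNA bound by S9.6, an antibody to hybrids of RNA and DNA, is pulled down and sequenced. The tables hold 93 such regions of 2980 for hrp36 cells, 167 of 7735 for hrp48 cells and 297 of 6477 for LacZ cells. All cells were S2 cells, a line of embryonic origin. The hrp36 and hrp48 cells carried a knockdown of an hnRNP protein, encoded by Hrb87F and Hrb27C, and LacZ, a bacterial gene that flies lack, was taken as the control target. How the knockdowns were made is not given in the labels, and their level was not analysed here. Each cell group has 2 libraries marked RNH+ and 2 marked RNH-, taken to mean with and without RNase H before the pull-down. The study comprised 18 libraries in 9 groups of 2, of which 12 were S9.6 libraries, while the 6 made from 10% input do not enter the values below.

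Heterochromatin is the compact, largely silent part of the genome around centromeres and on most of the Y chromosome, and it is built mainly of transposable elements and satellite repeats. RNA made from such repeats can stay at the chromatin, in part as RNA-DNA hybrids, in which RNA pairs with one DNA strand and leaves the other single. RNase H degrades the RNA strand of a hybrid, so S9.6 signal that is lower after the treatment is the part that behaves as hybrid in this assay. HnRNP proteins such as hrp36 and hrp48 bind nascent RNA and act in its packaging and splicing.

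Every value of a single region below is the mean of 2 libraries as the authors deposited it, in log2(normalised read count + 1), and is called its level. No SD goes with it, because the values are group means only, and the total reads per library are unknown. The labels do not say whether the 2 libraries of a group came from separate cultures, so a p-value reflects only how far such library pairs differ, possibly for technical reasons. Each table was named for 1 cell group, and 100% of its regions carry that group and the ending Un (RNH-) in their names. A table therefore favours regions with a high RNH- level in its own cells, which bears on every comparison between cell groups. Levels were on 1 scale across tables: at 20 Het regions shared by the hrp48 and LacZ tables, with borders within 10 bases of each other, no level differed by more than 0.0361. No annotation of dm3 was used, so regions are given by position and not by gene or repeat family, and no sequence is shown.

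Most of the listed regions were on the large scaffolds of the third chromosome. The hrp36 table held 40 regions on 3LHet, 38 on 3RHet, 6 on 2LHet, 5 on YHet and 4 on XHet. The hrp48 table held 83, 64, 7, 7 and 6 in this order of scaffolds, and that of LacZ cells 130, 136, 18, 7 and 6. The regions covered 175.4 kb in the hrp36 table, 177.4 kb in the hrp48 table and 249.9 kb in the LacZ table. They were longest in the hrp36 table, with a median length of 1043 bases, against 555 bases in the hrp48 table and 497 bases in the LacZ table. The median normalised read count per region (the authors' base mean over libraries) was 473.9, 271.4 and 167.3, against 310.5, 98.2 and 167.0 over all regions of these tables.

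YHet carried the densest signal, XHet came next, and the other 3 scaffolds were close to each other. Per kb of region, the median level on YHet in the LacZ table was 9.83 in hrp36 RNH+ and 11.0 in hrp36 RNH-. It was 9.88 in hrp48 RNH+, 10.12 in hrp48 RNH-, 9.99 in LacZ RNH+ and 10.20 in LacZ RNH-. On 2LHet, 3LHet and 3RHet the same 6 medians lay between 7.58 and 8.62, so the highest of them was below the lowest of YHet. Within each of the 6 groups XHet was between, with 9.14 in hrp36 RNH+ and 8.75 in hrp36 RNH-, 8.97 in hrp48 RNH+ and 8.30 in hrp48 RNH-, and 9.12 in LacZ RNH+ and 8.58 in LacZ RNH-. The YHet and XHet medians rest on 7 and 6 regions in this table, several of them neighbours, and no test was run between scaffolds.

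**Figure D1:**
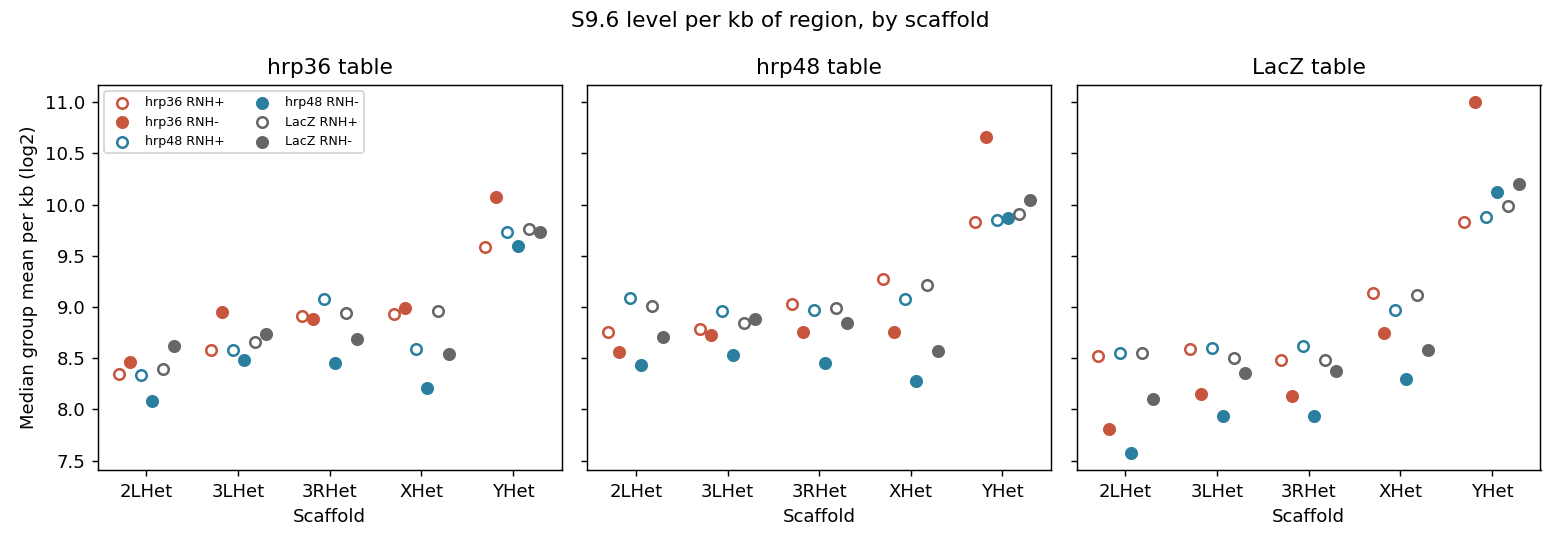
Median level per kb of region (log2, vertical axis) on each Het scaffold in the hrp36, hrp48 and LacZ tables. Open points are RNH+ and filled points RNH- groups, and YHet lies highest in each table, with its hrp36 RNH- point above the other 5 groups.

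Single regions ranged widely around these medians. The region with the most signal was 2LHet 367954 to 368865, with a base mean of 35692 in the LacZ table. Its level was 15.14 in hrp36 RNH+ and 14.93 in hrp36 RNH-, 15.37 in hrp48 RNH+ and 15.05 in hrp48 RNH-, and 14.99 in LacZ RNH+ and 14.61 in LacZ RNH-. All 6 groups were thus high there, and the RNH+ level was the higher one in each cell group. No table called the region, and RNH+ over RNH- in LacZ cells was 0.34 in log2 (SE 0.47, adjusted p 0.58) by the authors' deposited table. The strongest region of 3RHet, 787695 to 791844, had a base mean of 32089 and likewise no call. The strongest of 3LHet, 1125626 to 1127998, had 6964, and the strongest of YHet, 71750 to 74561, had 5524.

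The first comparison asked where the S9.6 signal of each cell group depended on RNase H. With RNH+ the called regions of hrp36 cells were nearly all falls, those of hrp48 cells were more often rises, and few regions of LacZ cells were called. Calls here take the authors' adjusted p at a threshold of 0.05, which is stricter than the 0.1 followed by the deposited column of calls. With the adjusted p of the authors' deposited table, 32 of 93 Het regions fell (34.4%) and 2 rose (2.15%) in hrp36 cells, where 44.9% of all 2980 regions fell and 5.34% rose. In hrp48 cells there were, by the authors' deposited table, 15 falls (8.98%) and 28 rises (16.8%) among 167 Het regions, against 44.6% and 5.71% of all 7735. In LacZ cells there were, by the authors' deposited table, 14 falls (4.71%) and 23 rises (7.74%) among 297, against 9.79% and 4.88% of all 6477. The share of falls on Het scaffolds was thus below that of the whole table in each cell group, most so in hrp48 cells. On the chromosome arms 33.7% fell in hrp36, 3.64% in hrp48 and 8.31% in LacZ cells, so Het was below the arms only in LacZ cells. Without the stretch of 3LHet described below, the Het share of hrp48 cells was 3.82%. An unadjusted p under 0.05 was reached by 44 of 93, 60 of 167 and 57 of 297 Het regions of the hrp36, hrp48 and LacZ tables. Over all regions it was reached by 1817 of 2980, 4740 of 7735 and 1452 of 6477.

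Fold changes on the Het scaffolds were set beside those of the chromosome arms. The median log2 fold change in the authors' deposited table of hrp36 cells was -0.50 on Het scaffolds (quartiles -1.06 and -0.06), against -0.61 on the arms and -0.75 over all regions. For hrp48 cells the authors' deposited table gave 0.16 on Het scaffolds (quartiles -0.37 and 0.60), against 0.23 on the arms and -0.82 over all. For LacZ cells the authors' deposited table gave 0.04 on Het scaffolds (quartiles -0.31 and 0.29), against -0.09 on the arms and -0.06 over all. On the arms 175 of 519 regions fell and 13 rose in hrp36 cells, 43 of 1180 fell and 187 rose in hrp48 cells, and 302 of 3632 fell and 140 rose in LacZ cells. Falls were thus the more frequent call of LacZ cells on the arms and rises on the Het scaffolds, while in hrp36 and hrp48 cells the same direction led in both. Because levels are normalised, a change common to all regions of a library moves the zero: with each table centred on its arm median, the Het falls and rises were 9 and 17 in hrp36 cells, 33 and 20 in hrp48 cells, and 3 and 16 in LacZ cells. The direction of these counts therefore depends on the zero chosen in hrp36 and hrp48 cells, while in LacZ cells rises led either way. The order of single regions within a table does not depend on the zero. Centred calls were not counted over all regions, so whether the Het counts differ from those of the whole table was not tested.

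Calls were found on each of the 5 scaffolds. In hrp36 cells 14 of 40 regions fell on 3LHet, 13 of 38 on 3RHet, 2 of 4 on XHet, 2 of 5 on YHet and 1 of 6 on 2LHet. The 2 rises of hrp36 cells were on 3LHet and XHet. In hrp48 cells the rises were spread over 3LHet (13 of 83), 3RHet (12 of 64), 2LHet (2 of 7) and XHet (1 of 6). The 15 falls of hrp48 cells were on 3LHet (13) and 3RHet (2), and 9 of the 13 lay in 1 stretch of 3LHet described below. Without that stretch 4 of 73 regions fell on 3LHet and 13 rose. In LacZ cells 3LHet had 7 falls and 9 rises among 130 regions, and 3RHet 7 falls and 11 rises among 136. YHet had no call in hrp48 or LacZ cells, and none of its 7 regions in either of these tables reached an unadjusted p under 0.05.

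**Figure D2:**
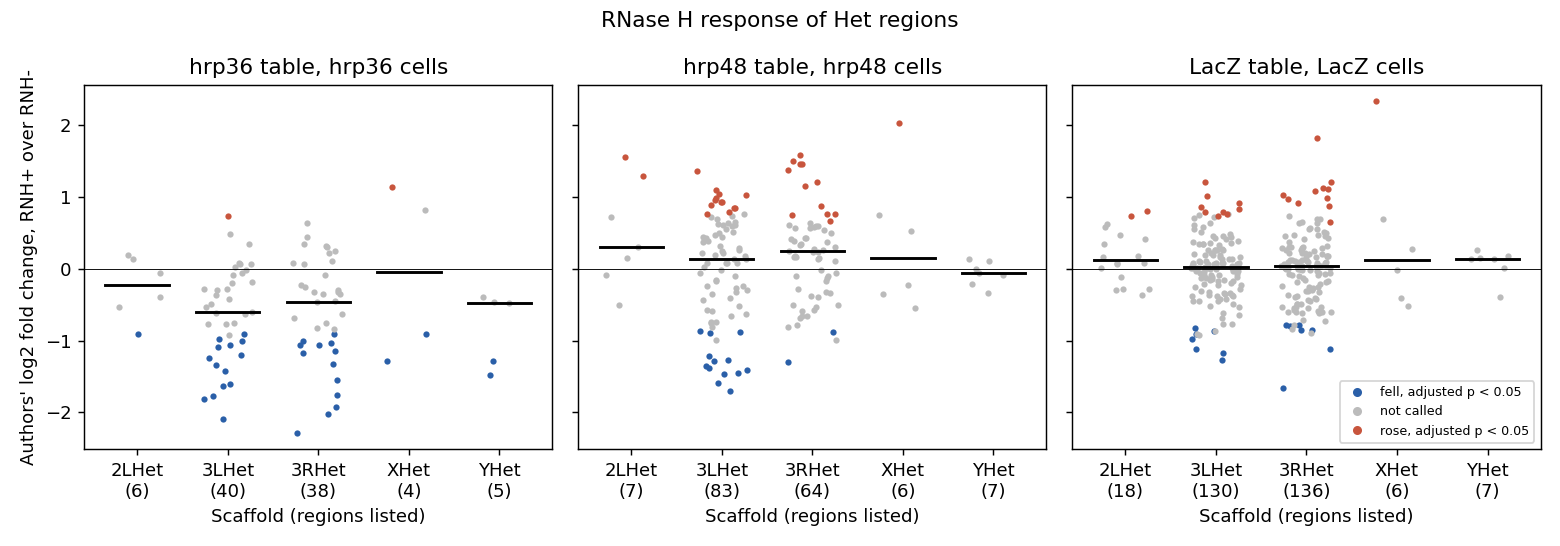
Log2 fold change of RNH+ over RNH- in the authors' deposited tables (vertical axis), 1 point per Het region by scaffold, for hrp36, hrp48 and LacZ cells. Bars mark medians, blue points fell and red points rose at an adjusted p under 0.05, and the falls are densest in hrp36 cells (32 of 93).

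Three-way matches show which regions behaved alike in all cells. Regions were matched between tables as each other's best overlap of at least 1 base, which left 72 Het regions present in all 3 tables. Of these, 3 fell in all cell groups, none rose in all, and 38 were called in no table. Of all 1924 regions matched in this way 9.82% fell in all, 1.35% rose in all and 44.1% were called in no table. The sign of the fold change was the same in all cell groups at 46, negative at 31 and positive at 15.

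The clearest of the 3 shared falls was 3RHet 949841 to 950644 (borders of the LacZ table). Its level was 8.69 in hrp36 RNH+ and 11.11 in hrp36 RNH-, 8.98 in hrp48 RNH+ and 10.42 in hrp48 RNH-, and 8.67 in LacZ RNH+ and 10.50 in LacZ RNH-. RNH+ was well below RNH- in each cell group. For hrp36 cells the authors' deposited table gave -2.28 (SE 0.35, adjusted p 5.2e-09), a fall of 4.86-fold. For hrp48 cells the authors' deposited table gave -1.30 (SE 0.35, adjusted p 0.00304), and for LacZ cells -1.66 (SE 0.35, adjusted p 1.00e-04). It lay near regions that moved the other way: on 3RHet 925659 to 937590, 2 successive listed regions rose in LacZ cells, and 925648 to 937551 held 2 successive rises in hrp48 cells.

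The second shared fall, 3RHet 654076 to 658332, was broader. Its level in the LacZ table was 9.26 in hrp36 RNH+ and 10.59 in hrp36 RNH-, 9.45 in hrp48 RNH+ and 10.21 in hrp48 RNH-, and 9.48 in LacZ RNH+ and 10.34 in LacZ RNH-. The authors' deposited table of each cell group gave -1.33 in hrp36, -0.88 in hrp48 and -0.79 in LacZ cells, with the region's borders differing between tables. The third, 3LHet 2552170 to 2552415, is the last listed region of 3LHet and had low signal, with levels of 6.09 in hrp36 RNH+ and 7.47 in hrp36 RNH-, 6.09 in hrp48 RNH+ and 7.15 in hrp48 RNH-, and 6.0 in LacZ RNH+ and 7.05 in LacZ RNH-. The authors' deposited table of each cell group gave -1.34 in hrp36, -0.89 in hrp48 and -0.97 in LacZ cells.

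The largest rise of the Het scaffolds was on XHet. At 194832 to 195308 the level was 9.34 in hrp36 RNH+ and 7.54 in hrp36 RNH-, 8.88 in hrp48 RNH+ and 6.62 in hrp48 RNH-, and 9.6 in LacZ RNH+ and 7.03 in LacZ RNH-. RNH+ was the higher level in each cell group, by more than 1 log2 unit. The log2 fold change for hrp48 cells was 2.03 (SE 0.36, adjusted p 9.31e-06) at 194838 to 195305 in the authors' deposited table, and 2.33 (SE 0.36, adjusted p 5.87e-08) for LacZ cells. The hrp36 table lists it inside a region of 6215 bases, 189720 to 195934, for which the authors' deposited table gave a rise of 1.13 (SE 0.43, adjusted p 0.0357). That region is matched with XHet 191921 to 193997 of the LacZ table among the 72, so the shorter region at 194832 is not one of them.

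The other regions of XHet were falls of hrp36 cells or had no call. At 40522 to 41131 the level in the LacZ table was 8.04 in hrp36 RNH+ and 9.24 in hrp36 RNH-, 7.81 in hrp48 RNH+ and 8.25 in hrp48 RNH-, and 7.95 in LacZ RNH+ and 8.48 in LacZ RNH-. By the authors' deposited table the overlapping region fell in hrp36 cells, with -1.29 (adjusted p 0.00359), and so did a neighbour at 35002 to 35571, with -0.90. The same places had adjusted p of 0.238 and 0.399 in hrp48 cells and of 0.433 and 0.252 in LacZ cells in the authors' deposited tables.

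As deposited, the 5 leading falls of hrp36 cells were each larger than any Het fall of hrp48 or LacZ cells. This ranking between tables depends on the zero chosen, since the arm medians were -0.61 in hrp36, 0.23 in hrp48 and -0.09 in LacZ cells. At 3LHet 1735336 to 1735858 the level was 8.54 in hrp36 RNH+ and 10.58 in hrp36 RNH-, 8.45 in hrp48 RNH+ and 9.14 in hrp48 RNH-, and 8.65 in LacZ RNH+ and 9.11 in LacZ RNH-. The RNH+ levels were close to each other and the RNH- level of hrp36 cells stood apart, and the authors' deposited table gave a fall of -2.09 (SE 0.47, adjusted p 0.000126). At 3RHet 168315 to 177108, a region of 8794 bases, the level was 12.45 in hrp36 RNH+ and 14.62 in hrp36 RNH-, against 12.78 in LacZ RNH+ and 13.48 in LacZ RNH-. The fold change there was -2.02 (SE 0.50, adjusted p 0.000478) for hrp36 cells in the authors' deposited table. The remaining leading falls, 3RHet 1391068 to 1392275 and 3LHet 666590 to 671756, had -1.92 and -1.81 in the authors' deposited table of hrp36 cells. Some falls were successive in the list: 4 listed regions in a row fell between 1086206 and 1128025 of 3LHet (41.8 kb), and 3 between 1665119 and 1839183 (174.1 kb). With 14 of 40 regions of 3LHet falling in hrp36 cells, whether falls lie together was not tested.

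Rises were the more frequent call in hrp48 and in LacZ cells. After the XHet region, the largest rise of hrp48 cells among regions of at least the median base mean was 3RHet 2110868 to 2111422. Its level was 8.99 in hrp36 RNH+ and 7.71 in hrp36 RNH-, 8.96 in hrp48 RNH+ and 7.42 in hrp48 RNH-, and 9.05 in LacZ RNH+ and 8.01 in LacZ RNH-. The authors' deposited table gave 1.46 (SE 0.28, adjusted p 2.71e-05) for hrp48 cells. The next rises of hrp48 cells, on 3LHet at 1159310, 342731 and 1243681, were between 0.88 and 1.03 in the authors' deposited table. In LacZ cells 3RHet 2136458 to 2136729 rose by 1.83 (SE 0.42 and adjusted p 0.000269, the authors' deposited table), with levels of 8.24 in hrp36 RNH+ and 7.24 in hrp36 RNH-, 8.87 in hrp48 RNH+ and 7.03 in hrp48 RNH-, and 8.85 in LacZ RNH+ and 6.69 in LacZ RNH-. On 3RHet 1992172 to 1994271, 3 successive regions rose in LacZ cells by 1.02 to 1.12 in the authors' deposited table, and 2 successive regions between 1992282 and 1993511 rose in hrp48 cells by 1.46 and 1.59.

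The falls of LacZ cells were fewer than those of hrp36 cells. Among regions of at least the median base mean, the leading ones after 3RHet 949841 were 3LHet 1086206 to 1087636 with -0.86 (SE 0.30, adjusted p 0.0172) and 3LHet 1089864 to 1090494 with -0.83 (SE 0.28, adjusted p 0.0129) by the authors' deposited table. These 2 regions are neighbours, and the first began the series of 4 falls of hrp36 cells given above. Its level was 8.55 in hrp36 RNH+ and 9.6 in hrp36 RNH-, 8.77 in hrp48 RNH+ and 9.37 in hrp48 RNH-, and 8.57 in LacZ RNH+ and 9.49 in LacZ RNH-. Among falls of hrp48 cells with at least the median base mean, the 3 regions were 3RHet 949841, 3RHet 654615 to 656664 and 3LHet 2182857 to 2185380, the last one inside the stretch described below.

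The next question was whether the response to RNase H differed between cell groups at the same Het regions. Measured as the RNH+ level minus the RNH- level, it was lowest in hrp36 cells at the regions of the hrp36 table, and highest in hrp48 cells in each table. At the 93 regions of the hrp36 table the median response was -0.49 in hrp36, 0.09 in hrp48 and -0.03 in LacZ cells, and it was below 0 at 72, 44 and 51 of them. At the 167 regions of the hrp48 table it was -0.06 in hrp36, 0.18 in hrp48 and 0.04 in LacZ cells. At the 297 regions of the LacZ table it was 0.17 in hrp36, 0.57 in hrp48 and 0.04 in LacZ cells, and it was above 0 at 174, 229 and 165. The sign of the median response of hrp36 cells thus depended on the table from which regions were taken. On the arms the medians had the same order of cell groups in each table. In the hrp36 table they were -0.62 in hrp36, 0.08 in hrp48 and -0.13 in LacZ cells.

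**Figure D3:**
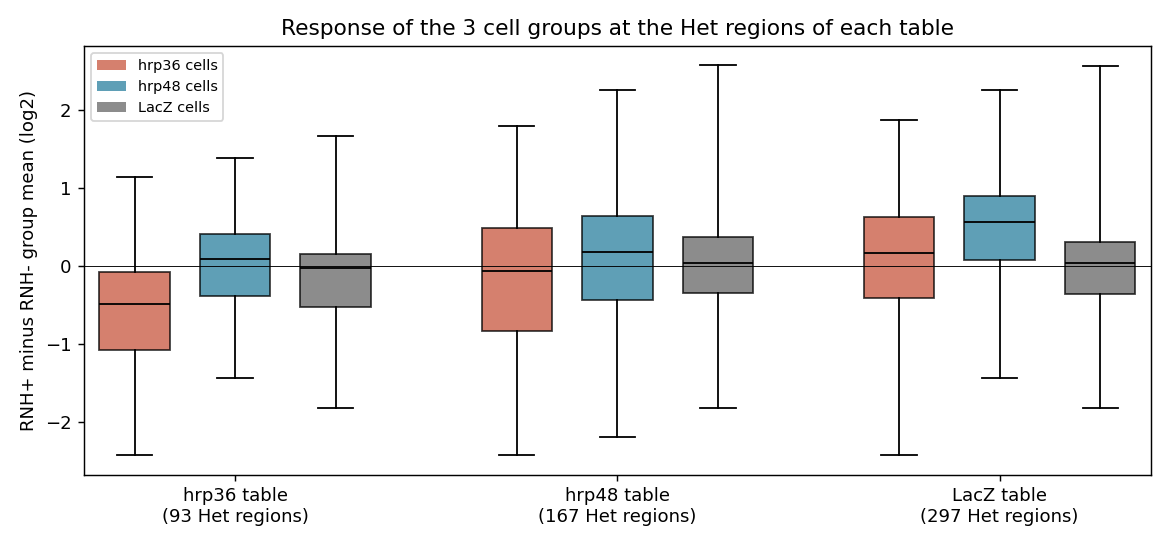
RNH+ minus RNH- level (log2, vertical axis) of hrp36, hrp48 and LacZ cells at the Het regions of each table. Boxes span the quartiles with the median as a line and whiskers reach the lowest and highest region, and the hrp36 box lies wholly below 0 only at regions of the hrp36 table.

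No Het region passed the test of a difference in response between tables. The difference of the authors' fold changes was tested with both of their standard errors (Wald test, Benjamini-Hochberg over all matched regions). For hrp36 against LacZ cells, 82 of 2165 pairs were on Het scaffolds, and 0 of them were called, where 0.0924% of all matched regions were. The median difference there was -0.39, it was below 0 at 69 of 82, and an unadjusted p under 0.05 was reached by 8 lower and 0 higher ones (smallest adjusted p 0.294). For hrp48 against LacZ cells, 139 of 3187 were on Het scaffolds with 0 called, as for 0% of all. Their median difference was 0.20, with 7 higher and 0 lower at an unadjusted p under 0.05. For hrp48 against hrp36 cells, 78 of 2363 were on Het scaffolds with 0 called, again 0% of all, a median of 0.58, and 6 higher and 0 lower at an unadjusted p under 0.05. Over all matched regions the median differences were -0.46, 0.18 and 0.64 in this order of comparisons, close to those on the Het scaffolds. Unadjusted p-values are not counted here over all matched regions, so the Het counts have no share beside them. These 3 comparisons share cell groups.

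Among the 72 regions matched in all tables, hrp36 cells had the lowest of the 3 fold changes at 61 and hrp48 cells the highest at 41. The medians over them were -0.72 in hrp36, -0.07 in hrp48 and -0.02 in LacZ cells in the authors' deposited tables. Such a ranking depends on the zero of each table, the arm medians being -0.61 in hrp36, 0.23 in hrp48 and -0.09 in LacZ cells. It was not counted over all regions matched in the 3 tables. No matched Het region was called in opposite directions in a pair of tables. In hrp36 and LacZ cells, 7 of the 82 matched Het regions fell in both and 0 rose in both, where 13.3% and 1.71% of all matched regions did. In hrp48 and LacZ cells 3 of 139 fell in both and 8 rose in both, against 6.9% and 3.86% of all. In hrp48 and hrp36 cells 3 of 78 fell in both and 1 rose in both, against 18.1% and 2.07% of all.

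Which regions were listed also differed. In the hrp36 table, 85 of the 93 Het regions (91.4%) had an overlap with the LacZ table, against 73.0% of all its regions, and 109 of the 297 LacZ regions (36.7%) overlapped one of the hrp36 table, against 36.8% of all. In the hrp48 table, 146 of 167 (87.4%) overlapped the LacZ table, against 42.0% of all its regions, and 147 of the 297 LacZ regions (49.5%) overlapped the hrp48 table, against 50.01% of all. The Het regions of hrp48 cells thus lay mostly where LacZ cells also had a listed region, unlike the hrp48 table as a whole.

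The level itself was then compared between knockdown and LacZ cells, as a difference of group means with the authors' standard error of the region (approximate Wald test, Benjamini-Hochberg over the table). At the 297 regions of the LacZ table without RNase H, hrp36 cells were below LacZ cells at 195 and above at 102, with a median difference of -0.21. None of them was called higher or lower (0.0309% and 0.0154% of all regions), and unadjusted p-values under 0.05 were found for 9 higher and 1 lower. At the same regions hrp48 RNH- was below LacZ RNH- at 287 of 297, with a median of -0.37. Again none was called higher or lower (0% and 0.0309% of all), and 0 were higher and 22 lower at an unadjusted p under 0.05. On the arms the medians were -0.31 for hrp36 and -0.48 for hrp48, farther below 0 than on the Het scaffolds. Among regions of 2000 bases or longer, hrp36 reached an unadjusted p under 0.05 in either direction at 2 of 25 Het and 36 of all 217. Among shorter ones it did so at 8 of 272 Het and 469 of all 6260. Such counts over all regions are not given here for hrp48.

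At the regions of the knockdown tables the signs differed. In the hrp36 table hrp36 RNH- exceeded LacZ RNH- at 78 of 93 Het regions, with a median of 0.31. None was called higher or lower (0.336% and 0% of all), and 10 were higher at an unadjusted p under 0.05, against 747 of all 2980 regions. With RNH+ the median was -0.11, with hrp36 below LacZ at 64 of 93 and none called (0.0336% higher and 0% lower of all). At an unadjusted p under 0.05, 0 were higher and 1 lower, against 5 and 29 of all 2980. In the hrp48 table hrp48 RNH- was below LacZ RNH- at 144 of 167 Het regions (median -0.23), yet 13 passed the test as higher and 0 as lower, against 48.6% and 0.181% of all its regions. Of these 13, 10 were the stretch of 3LHet and the other 3 are also on 3LHet. Since the hrp48 RNH- level is what the table's regions were listed for, these 13 are a description and not a tested excess. With RNH+ the median was -0.04 and none was called higher or lower (0.0388% and 0.0129% of all). At an unadjusted p under 0.05, 5 were higher and 2 lower, against 93 and 270 of all 7735.

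Long regions stood apart in hrp36 cells. The LacZ table had 25 Het regions of 2000 bases or longer, a border chosen after values were seen. Its regions were not chosen on hrp36 signal, but they favour a high LacZ RNH- level, which enters the difference below. There hrp36 RNH- exceeded LacZ RNH- at 23 of 25, by a median of 0.68 (range -0.26 to 1.15), whereas at the 272 shorter regions it did so at 79, with a median of -0.23. With RNH+ the long regions were above LacZ at 2 of 25, with a median of -0.21. The median response of hrp36 cells was -1.14 at long and 0.26 at short regions, that of hrp48 cells -0.33 and 0.62, and that of LacZ cells -0.33 and 0.06. No difference of level at a long region was called, the smallest adjusted p being 0.608. An unadjusted p under 0.05 was found at 2 of the 25, against 36 of the 217 regions of this length over the whole genome. The same held over the whole genome: of all 217 regions of this length in the LacZ table, the 25 included, hrp36 RNH- was above LacZ RNH- at 196, with a median of 0.69. At the Het regions under 2000 bases, the median was 0.27 in the hrp36 table and 0.07 in the hrp48 table. Its sign at short regions thus depended on the table, whereas long Het regions had 0.50 and 0.66 in these 2 tables.

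**Figure D4:**
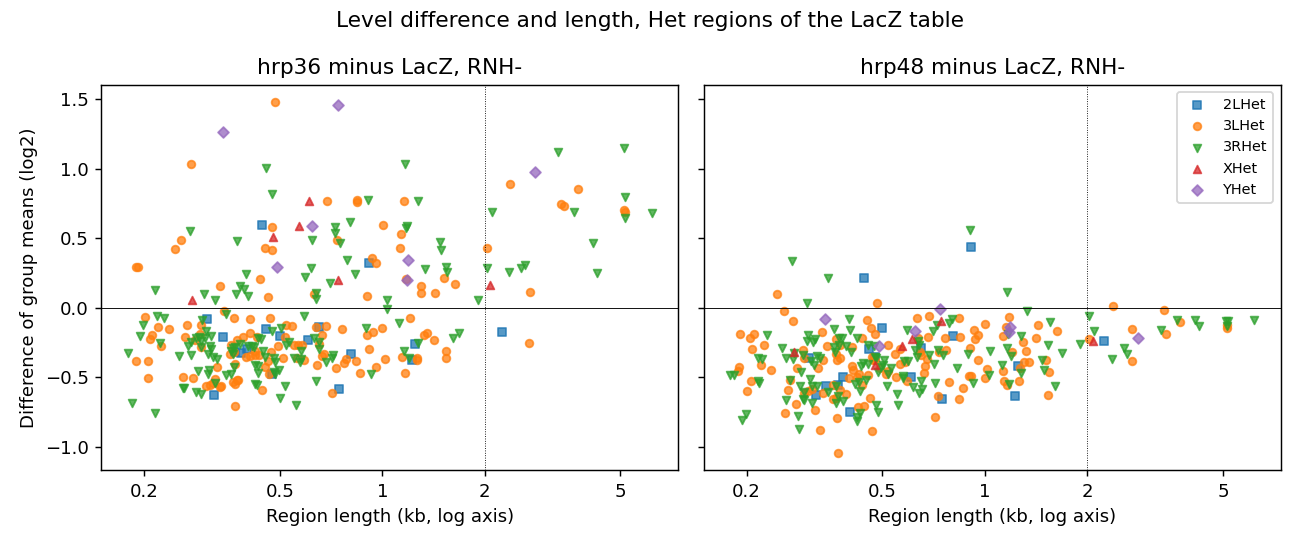
RNH- level of hrp36 (left) and hrp48 cells (right) minus that of LacZ cells (log2, vertical axis) against region length (kb, log axis) at the 297 Het regions of the LacZ table, by scaffold. The dotted line marks 2 kb, and beyond it 23 of 25 points lie above 0 for hrp36 and 1 of 25 for hrp48.

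Long regions also had more signal, with a median base mean of 4166 against 154.8 at short ones in the LacZ table. Whether depth, length or repeat content goes with the difference was not tested. Several long regions had nearly the same 6 levels. At 3LHet 1834003 to 1839183 (5181 bases) and 3RHet 2448842 to 2454021 (5180 bases) in the hrp36 table no level differed by more than 0.034. 3LHet 666590 to 671756 (5167 bases) was within 0.144 and 0.157 of them. How far such regions share reads was not resolved, so they may not count as separate observations.

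YHet showed the higher RNH- level of hrp36 cells at every listed region. In the LacZ table hrp36 RNH- exceeded LacZ RNH- at 7 of 7, with a median of 0.59, and hrp36 RNH+ was below LacZ RNH+ at 7 of 7, with a median of -0.25. Of these, 71750 to 74561, 74753 to 75375 and 75619 to 76359 lie within a single region of the hrp36 table. The 7 may therefore not count as separate observations. The hrp36 response was below 0 at 7 of 7 (median -1.05), where the medians of hrp48 and LacZ cells were -0.06 and 0.08. At YHet 71735 to 76371 in the hrp36 table the level was 12.45 in hrp36 RNH+ and 13.69 in hrp36 RNH-, 12.34 in hrp48 RNH+ and 12.48 in hrp48 RNH-, and 12.71 in LacZ RNH+ and 12.64 in LacZ RNH-. At YHet 137125 to 137464, a region of 340 bases, it was 8.27 in hrp36 RNH+ and 9.91 in hrp36 RNH-, 8.38 in hrp48 RNH+ and 8.56 in hrp48 RNH-, and 8.68 in LacZ RNH+ and 8.64 in LacZ RNH-. Both fell in hrp36 cells, by 1.28 (adjusted p 0.0359) and 1.48 (adjusted p 0.00437) in the authors' deposited table. No difference of level between cell groups was called on YHet, and 2 of 7 had an unadjusted p under 0.05. On XHet hrp36 RNH- was above LacZ RNH- at 6 of 6 (median 0.35), and RNH+ at 3 of 6.

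A stretch of 3LHet from 2160538 to 2185380 is listed in the hrp48 table alone. Its 10 regions span 24.843 kb and cover 11.094 kb. No region of the hrp36 or LacZ table overlaps any of them, and the LacZ table has no region between 2143909 and 2205291. The stretch was set apart because its hrp48 RNH- signal was known to be high, so that excess is a description here, also where its regions stand among the calls above.

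Without RNase H all 10 regions had more signal in hrp48 cells than in the other cells. The hrp48 RNH- level exceeded LacZ RNH- by 1.90 to 2.51 (median 2.15), which is 3.72-fold to 5.71-fold, and hrp36 RNH- by 1.5 to 2.08 (median 1.91). Levels of hrp36 and LacZ cells were close there, differing by -0.04 to 0.56 (median 0.24). With RNH+ the order was another one, since hrp48 was below LacZ at 10 of 10 regions, by 0.12 to 0.84, and hrp36 was below LacZ at 10 of 10, by 0.05 to 0.70. The excess of hrp48 cells was thus present in RNH- libraries and not in RNH+ libraries.

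The region of the stretch with the most signal was 2182857 to 2185380, of 2524 bases. Its level was 8.38 in hrp36 RNH+ and 7.66 in hrp36 RNH-, 8.58 in hrp48 RNH+ and 9.51 in hrp48 RNH-, and 8.70 in LacZ RNH+ and 7.49 in LacZ RNH-. Only in hrp48 cells was RNH+ the lower level there. The region with the least signal, 2179413 to 2179727, had 4.63 in hrp36 RNH+ and 4.14 in hrp36 RNH-, 4.41 in hrp48 RNH+ and 6.07 in hrp48 RNH-, and 5.08 in LacZ RNH+ and 3.94 in LacZ RNH-. The first region, 2160538 to 2162332, had 6.92 in hrp36 RNH+ and 6.25 in hrp36 RNH-, 6.88 in hrp48 RNH+ and 8.21 in hrp48 RNH-, and 7.09 in LacZ RNH+ and 6.28 in LacZ RNH-. All 3 regions show the same order of the 6 groups at their top and a low RNH- level in hrp36 and LacZ cells.

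The response at the stretch had opposite signs in the cell groups. In hrp48 cells the RNH+ level minus the RNH- level was -1.67 to -0.31 (median -1.43), whereas it was 0.22 to 1.09 (median 0.61) in hrp36 cells and 0.81 to 2.0 (median 1.21) in LacZ cells. These signs were not particular to the stretch. At the 7568 regions of the hrp48 table other than Het, the median response was -0.89 in hrp48, 0.32 in hrp36 and 0.92 in LacZ cells. In the authors' deposited table of hrp48 cells 9 of the 10 regions fell, with a median log2 fold change of -1.32, and 8 of the falls follow each other without an uncalled region between. The exception was 2180505 to 2180994, with -0.30 (SE 0.36, adjusted p 0.521) by the authors' deposited table. The hrp48 response minus the LacZ response had a median of -2.67 and a range from -3.31 to -2.14. These values share the RNH- level that set the stretch apart. Signal per kb was low, with a median base mean of 86.0 per kb in the stretch. In the same table it was 482.2 in the rest of 3LHet and 171.1 at the regions other than Het.

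Inside single tables, where all 6 levels of a region are given, the response could be compared without matching, taking for both groups the error given for the table's own cells. In the hrp36 table no Het region differed in response between hrp36 and LacZ cells (0.369% of all regions did), and 8 had an unadjusted p under 0.05, against 430 of all 2980. In the hrp48 table the response of 13 Het regions was lower and of 4 higher in hrp48 than in LacZ cells, 17 of 167 in all, where 49.7% of all regions of the table differed. Of all its 7735 regions 3755 were lower and 88 higher. The 13 lower ones carry the hrp48 RNH- level that the listing favours, so they are given as values and not as a test. Without the stretch the Het counts were 3 lower and 4 higher among 157. The 3 others lower lie on 3LHet at 159889 to 160362, 165716 to 165961 and 168315 to 168569, and were also the 3 others called higher in hrp48 RNH-. Chosen after their values were seen, they exceeded LacZ RNH- by 1.80 to 1.97 and had a base mean of 29.2 to 29.8, the first of these being the lowest among the table's Het regions.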

How the data were processed

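Per the submitters' processing notes, reads were handled on dm3 with Bowtie2 2.2.2, MACS 1.4.2 and DESeq2. How multi-mapped reads were treated, and whether libraries were pooled for peak calling, is not stated in these sources. The authors deposited, per region, 6 log2 group means. On the files they behave as means of log2(normalised count + 1), the back-transformed mean never exceeding the base mean (largest ratio 0.999). The authors also deposited the base mean (a normalised signal), a shrunken log2 fold change of RNH+ over RNH- in the table's own cells with its SE, a Wald score, its p-value, raw and adjusted, and a call score of -1, 0 or 1 given where that adjusted p is below 0.1. The columns named Un and Tr were read as RNH- and RNH+. The deposited adjusted p-value and one recomputed by Benjamini-Hochberg from the listed p-values differed by up to 0.0696 (hrp36), 0.0426 (hrp48) and 0.138 (LacZ).

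Regions were called at an adjusted p under 0.05. Standard errors were scaled by 1.05, 1.08 and 1.07 (hrp36, hrp48 and LacZ tables) for differences of group means, which are not shrunken. Named regions are, per table, the 5 largest falls and 5 largest rises among called Het regions of at least the median base mean, regions called alike in all 3 tables, the stretch, each scaffold's strongest region and regions whose response differed. Not every region the rule takes is described. Tests were tried on simulated data. Alternatives were other thresholds, adjustments, filters, centring, overlap and scaling. The members, lists and tests were chosen with earlier results of these data known. The work was done in Python 3.11.15 with SciPy 1.17.1, pandas 2.3.3, Matplotlib 3.10.9 and NumPy 2.4.6. Input libraries, gene lists and promoters were not analysed here.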

Additional observations from a re-analysis of the deposited data

Results flagged for a closer look

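At 4 Het regions of the hrp48 table the response to RNase H (RNH+ minus RNH- level) was higher in hrp48 cells, compared with LacZ cells, by the approximate test within the table, which was added after the data were seen. These were 4 of 167 Het regions, against 88 called higher among all 7735 regions. On 3LHet the difference was 1.25 at 363528 to 363785, 1.65 at 1233924 to 1234158 and 1.55 at 1723374 to 1723696. At 1233924 the level was 6.67 in hrp48 RNH+ and 6.44 in hrp48 RNH-, against 5.52 in LacZ RNH+ and 6.94 in LacZ RNH-. On 3RHet it was 1.35 at 1128551 to 1128902, with 8.23 in hrp48 RNH+ and 7.03 in hrp48 RNH-, against 7.43 in LacZ RNH+ and 7.58 in LacZ RNH-. None of these 4 was called by the Wald test between matched regions, which uses the standard errors of both tables. Its adjusted p was 0.999 at 363528, 0.888 at 1233924, 0.902 at 1723374 and 0.444 at 1128551. The matched difference was 0.277 at 363528, where the LacZ region is wider (362864 to 364006). At 1233924, 1723374 and 1128551 it was from 1.37 to 1.41. The 13 regions with a lower response in hrp48 cells are left out, because the table lists regions for their hrp48 RNH- level, which enters that response.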

How the results depend on the processing

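No named region that was called changed sign. Centring on the arm median turned the balance of calls to rises in hrp36 cells (9 falls, 17 rises) and to falls in hrp48 cells (33 falls, 20 rises). Centred calls over all regions were not counted beside them. Leaving out a replicate could not be run on group means. No paired analysis was possible because only means of the 2 libraries per group were used. Falls of hrp36 cells (32) became 9 when centred on the arm median and 21 without regions of 2000 bases or longer. Rises of hrp36 cells (2) became 0 at a threshold of 0.01, 4 with Benjamini-Hochberg over the listed p-values, 1 with an absolute log2 fold change of at least 1, 1 where the base mean had to reach the table median, 17 centred and 1 without long regions, and the median of -0.50 became 0.12 centred. Falls of hrp48 cells (15) became 8 with the base mean filter, 33 centred and 6 without the stretch, and rises (28) became 16 at 0.01 and 14 with the minimum fold change. Falls of LacZ cells (14) became 3 at 0.01, 7 with Benjamini-Hochberg, 5 with the minimum fold change, 5 with the base mean filter and 3 centred. Rises of LacZ cells (23) became 9 at 0.01, 10 with Benjamini-Hochberg, 9 with the minimum fold change and 10 with the base mean filter. The hrp48 and LacZ responses, different at 0 matched Het regions, differed at 17 within the hrp48 table and at 15 there when centred, where regions absent from the LacZ table also enter and 13 of the 17 carry the RNH- level that the listing favours. With unscaled standard errors, 1 Het region of the hrp48 table was lower in hrp48 RNH- than in LacZ RNH-, where there was 0. Of the named region values, 47 kept their side of the threshold with Benjamini-Hochberg and 4 lost the call, and centred 41 kept it, 9 lost it and 1 gained it. The cause of these changes was not tested. Depth is unknown, and 2 libraries per group limit what can be called.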
